A study of Mus musculus with 48 samples.

Results

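Nuclear genes encode most subunits of the mitochondrial complexes that carry out oxidative phosphorylation, and their mRNAs were followed here in fibroblasts with and without tristetraprolin while transcription was blocked. The genes were taken by name: every gene with a single symbol in the array's probe table that begins with Nduf followed by a, b, c, s or v and a number, that is Sdha, Sdhb, Sdhc or Sdhd, or that begins with Uqcr, Cox4 to Cox8 or Atp5. This gave 81 genes of the 18194 with a symbol of their own, measured by 164 probe sets, and each gene was read from its brightest probe set by the mean over all arrays. Of the 81 genes, 35 belong by name to complex I, 4 to complex II, 8 to complex III, 17 to complex IV and 17 to complex V. A filter on low values (above the array's median on at least 4 arrays) kept 76 of them for testing (33, 4, 8, 14 and 17 by complex). The 5 genes that did not pass were Cox4i2, Cox6a2, Cox6b2, Ndufa4l2 and Ndufb4. For Ndufb4 the brighter probe sets carry the symbols of 3 related genes, and the rule did not take them.

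The respiratory chain passes electrons from NADH (complex I) and succinate (complex II) through ubiquinone to complex III, then through cytochrome c to complex IV, which reduces oxygen. Complexes I, III and IV pump protons out of the mitochondrial matrix, and complex V, the ATP synthase, uses the returning protons to make ATP. A few subunits of these complexes are encoded in mitochondrial DNA, and the nuclear-encoded ones studied here are made in the cytosol and imported. Their mRNAs are known as housekeeping transcripts of long half-life, and their promoters are known for sites of the factors Nrf1, GABP and YY1.

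The KO line, in which Zfp36, the gene of tristetraprolin (TTP), is disrupted, was set against the WT line. Tristetraprolin binds AU-rich elements in mRNA and speeds their decay. Both are fibroblast lines from littermate E14.5 embryos, without head and organs, whose parents of mixed 129/B6 background were heterozygous for the TTP disruption. The labels read as 1 line per genotype, so that a difference between KO and WT is a difference between these lines and cannot be told apart from clonal differences. They do not say whether KO replicates 4 and 5 came from the same line or culture as replicates 1 to 3. Cells were starved in 0.5% serum over 16 h, and 10% serum was put back for 90 min. Actinomycin D, which blocks transcription, was then added at 0.5 µg/ml by the sample labels and at 5 µg/ml by the series text. RNA was taken at 0, 30, 60, 90 and 120 min, each sample from 3 combined dishes, in 5 experiments. The KO line had 4 arrays at 0 min, 5 at 30 min, 4 at 60 min, 5 at 90 min and 5 at 120 min, and the WT line had 5 at each time, 23 and 25 arrays in all. The series text places the 5 experiments on different days, the labels do not tie the replicate numbers to them, and p-values measure the spread between these samples.

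Values are log2 signals as deposited, with array medians between 8.47 and 8.56. A signal near 8.13, the highest 5th percentile of any array, carries little or no information. Every value is relative to the other transcripts on its array, and in such bulk RNA fewer cells of a kind and less RNA per cell cannot be told apart. After actinomycin D a higher signal therefore means a smaller loss than that of the average transcript, or no loss, and need not mean new RNA. Zfp36 itself averaged 9.51 ± 0.16 in KO (SD, n = 4) and 9.86 ± 0.16 in WT (SD, n = 5) at 0 min, a difference of -0.35 ± 0.090 (SE; limma adjusted p = 0.00245). The labels do not place its probe set relative to the disruption, so that this signal does not check the genotype. Of 12 fibroblast markers 11 passed the filter. Vim, a fibroblast intermediate filament gene, had a median of 13.06 in KO and 13.25 in WT, and Col1a2 a median of 12.55 in KO and 12.50 in WT. Thy1, at 8.07 in KO and 8.11 in WT, was at the floor, and Pdgfra was higher in KO, at 10.17 against 8.94. Medians of the 4 endothelial markers lay between 8.14 and 8.43 in KO and between 8.16 and 8.43 in WT, and those of the 5 epithelial markers between 8.27 and 8.55 in KO and between 8.27 and 8.57 in WT. In 42 of the 27500 probe sets tested, the KO arrays of replicates 4 and 5 stood more than 0.5 apart from those of replicates 1 to 3, 26 above and 16 below. The subunit gene among them was Cox7b2. Values within replicates 1 to 3 and within replicates 4 and 5 stand beside the results they change.

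Of the 81 genes, 66 had a promoter in the RefSeq table of assembly GRCm38.p6, covering 250 bases before and 50 bases after the annotated start. They were set against 10474 genes with a probe set past the filter on low values and against all 27025 promoters. Cox6b2 and Ndufb4 are among the 66 although they did not pass that filter. The letters GCGCANGCG, from the core of the Nrf1 site, occurred on either strand in 18 of these 66 promoters (27.3%). The share was 13.9% for genes past the filter and 7.03% for all. The letters CCGGAAG, read by GABP and other ETS factors, occurred in 17 (25.8%), against 18.2% of genes past the filter and 9.93% of all. AAGATGGCG, the YY1 element, occurred in 6 (9.09%), against 3.19% of genes past the filter and 1.64% of all. CCAAT boxes occurred in 28 (42.4%), against 43.0% of genes past the filter and 41.1% of all. A match of letters is a description and no proof of a site. Shown here are the 250 bases before the start of 3 members described below, with matches in capitals: Atp5e, with the lowest KO signal relative to WT, at chr2:174464102-174464351, with an ETS match (on the other strand) and CCAAT boxes; Atp5k, higher in KO, at chr5:108434400-108434649, with Nrf1 matches that overlap on the 2 strands; and Sdhd of complex II, at chr9:50603850-50604099, with an Nrf1 and an ETS match. All 3 are on the minus strand of GRCm38.p6 and written 5′ to 3′.
Atp5e: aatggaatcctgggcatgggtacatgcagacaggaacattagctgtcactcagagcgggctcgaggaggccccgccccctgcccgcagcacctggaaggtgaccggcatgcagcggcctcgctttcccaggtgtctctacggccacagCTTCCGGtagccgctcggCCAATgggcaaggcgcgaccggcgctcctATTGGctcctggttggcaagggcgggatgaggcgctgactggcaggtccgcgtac
Atp5k: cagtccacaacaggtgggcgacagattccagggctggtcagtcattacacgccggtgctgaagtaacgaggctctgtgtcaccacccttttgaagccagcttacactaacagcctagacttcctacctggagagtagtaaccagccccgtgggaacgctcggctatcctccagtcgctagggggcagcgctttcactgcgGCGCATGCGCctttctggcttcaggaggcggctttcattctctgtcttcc
Sdhd: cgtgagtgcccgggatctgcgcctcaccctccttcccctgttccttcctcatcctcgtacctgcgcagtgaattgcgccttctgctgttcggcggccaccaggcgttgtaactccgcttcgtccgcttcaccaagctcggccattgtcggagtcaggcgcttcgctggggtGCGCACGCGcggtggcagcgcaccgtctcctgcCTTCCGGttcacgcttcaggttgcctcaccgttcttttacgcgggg

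Of the 76 genes tested, 71 had a mean signal above 9 (between 9.23 and 12.12, median 11.06), well clear of the floor. The other 5 were Cox7a1, Cox7b2, Cox7c, Cox8b and Cox8c, with means between 8.29 and 8.58. Cox7a1 and Cox8b are the forms of heart and skeletal muscle. Cox7a1 had a median of 8.57 in KO and 8.59 in WT, and Cox8b had a median of 8.50 in both. No member's signal was set against another's, since probe sets differ in efficiency. The plot of group means by line and time shows that most rows redden to the right within each line, while the sign of the step between the lines changes from gene to gene.

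**Figure D1:**
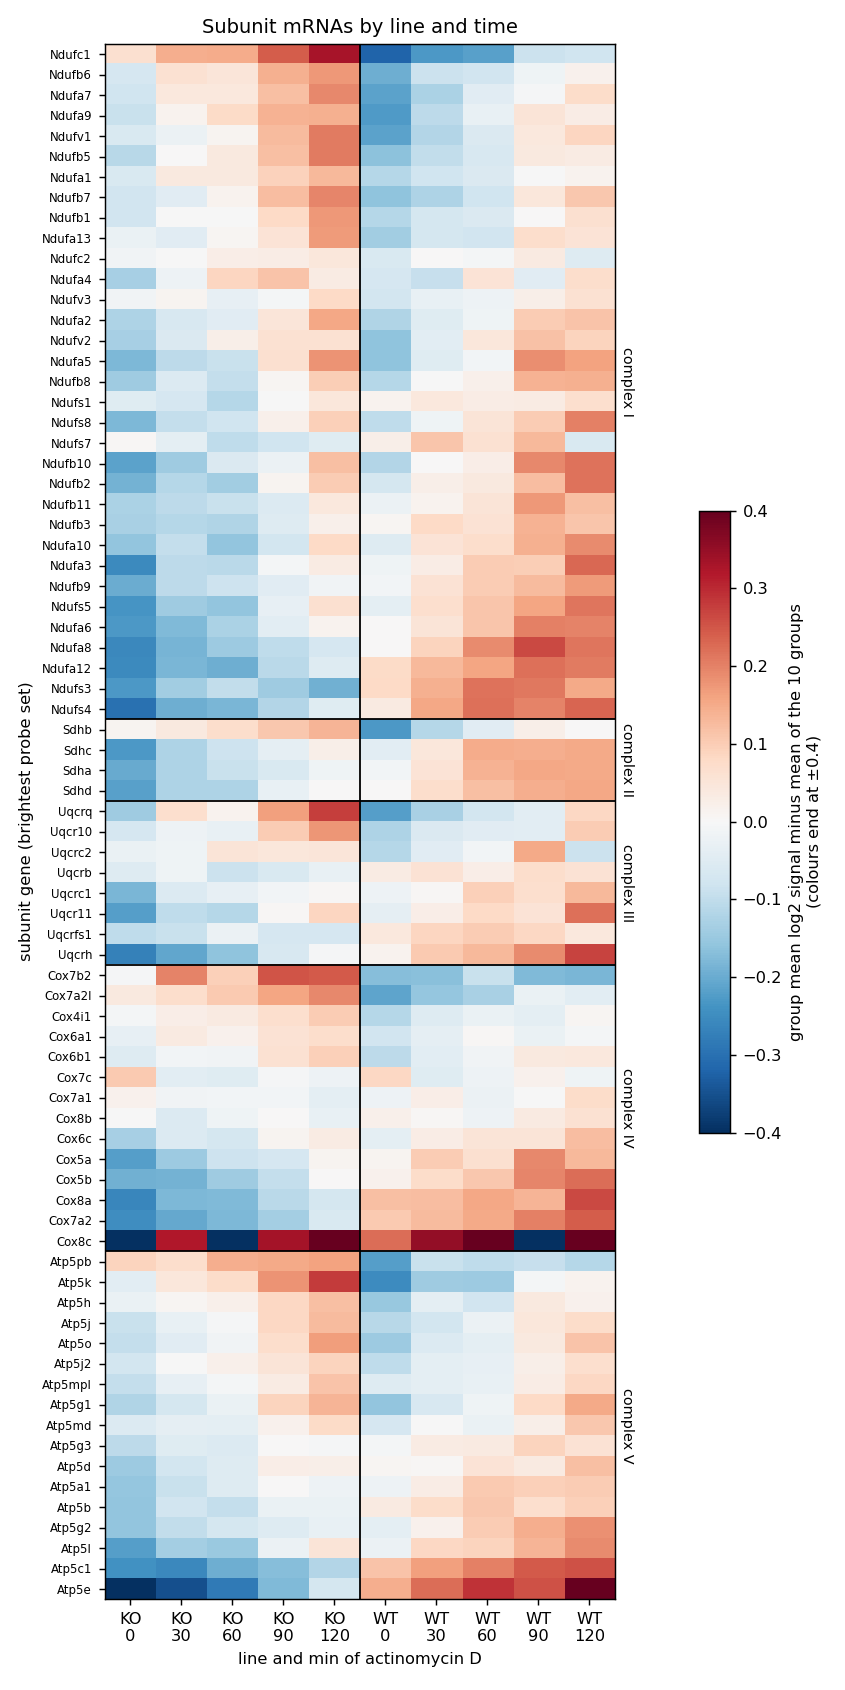
Colour gives the group mean log2 signal of each of the 76 tested subunit genes (rows, grouped by complex) minus that gene's mean over the 10 groups, for KO (left) and WT (right) at 0 to 120 min of actinomycin D. Colours end at ±0.4. Rows that pass this include Cox8c, because 3 of its arrays read below 7, and Atp5e, in KO at 0 min and in WT at 120 min.

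The first question was how the level of each subunit mRNA differed between the lines. Taken over the 5 times, 36 of the 76 genes were lower in KO, 20 were higher and 20 did not pass (limma, Benjamini-Hochberg adjusted p below 0.05 over 27500 probe sets). The lower genes were 47.4% of the members and the higher ones 26.3%, where 25.6% of all probe sets were lower and 27.3% were higher. With arrays centred on the ribosomal protein genes 9124 probe sets were higher and 5227 lower in KO, and 23 members were higher and 35 lower. The members' share of higher calls was near that background and their share of lower calls above it. These fits take the times of 1 line and replicate number as independent. With each line's replicate as a random block (correlation 0.34), 17 members were higher (22.4%, against 21.1% of all probe sets) and 31 lower (40.8%, against 17.4%). SEs and p-values of the line difference given by gene below are from the fit without a block, except where one is named. Differences were small. The members' median was -0.074 and that of all probe sets -0.0059, and 9 of the called members differed by more than 0.3 on the log2 scale, the largest 1.45-fold, leaving out Cox7b2. That gene is 1 of the 20 higher members but passed the filter through KO arrays alone, and without it 19 of 75 members were higher and 36 lower.

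Complex V held the largest difference. Of its 17 genes 3 were higher in KO and 8 lower (17.6% and 47.1%, against 27.3% and 25.6% of all probe sets). Its F1 part, the catalytic head with the central stalk, is formed by the products of Atp5a1, Atp5b, Atp5c1, Atp5d and Atp5e. Of these genes 5 of 5 were lower in KO, by 0.088 to 0.54. Atp5e, the epsilon subunit of the central stalk, ranged from 9.85 to 10.51 with a median of 10.22 over the 23 KO arrays and from 10.44 to 11.04 with a median of 10.76 over the 25 WT arrays. The ranges overlap only between 10.44 and 10.51. At 0 min its 4 KO arrays read 9.95, 10.06, 9.85 and 10.18, and its 5 WT arrays 10.68, 10.64, 10.64, 10.68 and 10.44, without overlap. The difference over all times was -0.54 ± 0.034 (SE; limma adjusted p = 6.63e-18), and at 0 min it was -0.60 (adjusted p = 6.15e-08). With each line's replicate as a random block the difference over all times was -0.53 ± 0.049 (SE, limma adjusted p = 9.21e-13). Within replicates 1 to 3 the 0 min difference was -0.70 (adjusted p = 2.86e-07) and within replicates 4 and 5, which hold 1 KO array at 0 min, -0.38 (adjusted p = 0.103).

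Atp5c1, the gamma subunit that turns inside the head, ranged from 11.24 to 11.62 in KO with a median of 11.48 and from 11.66 to 11.98 in WT with a median of 11.83. Each of the 23 KO arrays lay below each of the 25 WT arrays, and the difference was -0.39 ± 0.022 (SE; limma adjusted p = 4.34e-20). Cox7a2 was the only other member without overlap. Of the 76 members 2 (2.63%) thus had every KO array below every WT array, against 2.49% of all probe sets, and 0 had every KO array above, against 2.40%. The c ring, through which protons pass, is built from a protein encoded by Atp5g1, Atp5g2 and Atp5g3. Atp5g2 and Atp5g3 were lower in KO by 0.16 and 0.084, and Atp5g1 did not pass (0.0024, adjusted p = 0.943).

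Outside the F1 part and the c ring stand 9 subunits of the peripheral stalk and membrane part of complex V. Of these, 3 were higher in KO and 1, Atp5l, was lower. Of all probe sets 27.3% were higher and 25.6% lower, so that the higher genes here were near that share. Atp5pb, the b subunit of the peripheral stalk, ranged from 11.36 to 11.71 in KO with a median of 11.55 and from 11.16 to 11.48 in WT with a median of 11.32. The 2 ranges overlap, and the difference was 0.25 ± 0.026 (SE; limma adjusted p = 3.40e-11). Atp5k, the e subunit that takes part in joining the synthase into dimers, ranged from 11.08 to 11.60 in KO with a median of 11.35 and from 10.86 to 11.39 in WT with a median of 11.14, a difference of 0.21 (adjusted p = 7.89e-07). Atp5h was higher in KO by 0.084 (adjusted p = 0.0190), and Atp5l, the g subunit, was lower by 0.19. Atp5j2, which codes for the f subunit and had the brightest probe set of the complex, did not pass (0.033, adjusted p = 0.0767). Atp5k has 4 pseudogenes in the annotation and Atp5l 2, which these probe sets may also bind.

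In complex I 10 of 33 genes were higher in KO and 15 lower (30.3% and 45.5%, against 27.3% and 25.6% of all probe sets). The core subunits tested were Ndufv1, Ndufv2, Ndufs1, Ndufs3, Ndufs7 and Ndufs8, of which 1 was higher and 3 lower. Of 26 accessory subunits 9 were higher and 12 lower. Ndufa4, which carries a complex I name and has been reassigned to complex IV, did not pass and is in neither count. Ndufc1, a small accessory subunit of the membrane arm, had the largest positive difference. It ranged from 11.31 to 11.78 in KO with a median of 11.57 and from 10.90 to 11.49 in WT with a median of 11.17. At 0 min the KO arrays read 11.38, 11.31, 11.48 and 11.48 and the WT arrays 11.01, 10.90, 11.00, 11.16 and 11.07, without overlap. Its difference over all times was 0.37 ± 0.032 (SE; limma adjusted p = 1.04e-13).

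Ndufs4, an accessory subunit that is needed to complete complex I, was lower in KO by 0.34 ± 0.024 (SE; limma adjusted p = 3.33e-16), with 10.41 to 10.82 (median 10.57) in KO and 10.60 to 11.09 (median 10.89) in WT. Ndufs3, a core subunit beside the iron-sulphur chain, was lower by 0.32 (adjusted p = 3.81e-14), with 10.27 to 10.60 (median 10.41) in KO and 10.53 to 10.94 (median 10.75) in WT. In both genes the ranges overlap. Ndufb11, an X-linked accessory subunit, was lower by 0.13 over all times (adjusted p = 0.00166) and by 0.076 within replicates 1 to 3, where it did not pass (adjusted p = 0.0549). Ndufs8 depended on the replicates taken. It was lower by 0.094 over all arrays (adjusted p = 0.00678) and by 0.17 within replicates 1 to 3 (adjusted p = 7.71e-06), and stood at 0.021 within replicates 4 and 5 (adjusted p = 0.783). Its call was also lost without replicate 1 (adjusted p = 0.107) or replicate 2 (adjusted p = 0.0979) and with each line's replicate as a random block (adjusted p = 0.0550).

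Ndufa12 and Ndufa3 are accessory subunits whose probe sets do not give 1 answer. The brightest probe set of Ndufa12 was lower in KO by 0.32 and another by 0.62, a further probe set did not pass at 0.039 (adjusted p = 0.197), and a dim probe set was higher by 0.11 (adjusted p = 1.13e-07). For Ndufa3 the brightest probe set was lower by 0.18 and another by 0.16, and a dim probe set with a mean of 8.56 was higher by 0.067. Both genes are counted as lower by their brightest probe set, which for Ndufa12 is 1 answer among several. Among the 71 further probe sets of 44 members, 57 had the same call as the brightest probe set of their gene, 12 were called by only 1 of the pair, and 2, those just named, were called the opposite way. For the changes over 120 min treated below the probe sets differed more often, with 46 of 71 having the same call in KO and 45 in WT and the others called by only 1 of the pair.

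Complex II, succinate dehydrogenase, was measured in full, and all 4 of its genes differed between the lines, 25% higher and 75% lower in KO. Of all probe sets 27.3% were higher and 25.6% lower. Sdha, Sdhc and Sdhd, which code for the flavoprotein and the membrane anchors, were lower in KO by 0.20, 0.18 and 0.20. Sdhb, the iron-sulphur subunit, was higher in KO by 0.15 ± 0.022 (SE; limma adjusted p = 1.82e-07). Its KO arrays at 0 min read 10.62, 10.62, 10.64 and 10.62, against 10.48, 10.42, 10.41, 10.28 and 10.31 in WT, without overlap, a difference of 0.24 (adjusted p = 0.000215). Sdhd, on the same arrays, read 9.57, 9.59, 9.63 and 9.66 in KO against 9.95, 9.94, 9.75, 9.81 and 9.71 in WT, a difference of -0.22 (adjusted p = 0.00189). The 4 genes of this complex thus stood on both sides of 0. For Sdhc the difference at 0 min was -0.19 (adjusted p = 0.00179), and -0.055 within replicates 4 and 5 (adjusted p = 0.698).

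In complex III 2 of 8 genes were higher in KO and 5 lower (25% and 62.5%, against 27.3% and 25.6% of all probe sets). Uqcrq, a small accessory subunit, was higher by 0.15 ± 0.032 (SE; limma adjusted p = 9.11e-05). Within replicates 1 to 3 it was higher by 0.081 and within replicates 4 and 5 by 0.29. Uqcrh, the hinge subunit that helps cytochrome c dock, was lower by 0.28 (adjusted p = 7.73e-11). Uqcrb ranged from 11.89 to 12.25 in KO and from 11.98 to 12.29 in WT, and was lower in KO by 0.099 (adjusted p = 0.00705), a call that was lost within replicates 4 and 5 (-0.039, adjusted p = 0.149) and with each line's replicate as a random block (adjusted p = 0.0817). Uqcrfs1, the Rieske iron-sulphur protein, was lower by 0.14 (adjusted p = 9.51e-06).

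In complex IV 4 of 14 genes were higher in KO and 5 lower (28.6% and 35.7%, against 27.3% and 25.6% of all probe sets). The higher ones include Cox7b2, which passed the filter through KO arrays alone. Cox7a2, the widespread form of subunit VIIa, ranged from 11.50 to 11.76 in KO with a median of 11.63 and from 11.85 to 12.12 in WT with a median of 11.94. The arrays of the lines did not overlap, and the difference was -0.33 ± 0.019 (SE; limma adjusted p = 1.45e-19). Cox7a2l, a relative of Cox7a2 that acts in joining complexes III and IV into supercomplexes, was higher in KO by 0.23 ± 0.020 (adjusted p = 1.64e-13). Cox8a, the widespread form of subunit VIII, was lower by 0.32 (adjusted p = 2.23e-12), and Cox5a and Cox5b were lower by 0.20 and 0.25. Cox4i1, the widespread form of subunit IV, was higher by 0.090 (adjusted p = 9.33e-06), and Cox6a1 was higher by 0.058 (adjusted p = 0.00440), a difference that was 0.029 within replicates 4 and 5 (adjusted p = 0.412).

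Among the 8 subunit forms known for restricted expression, in muscle, heart, testis, lung or hypoxia, 4 passed the filter. Cox7b2, a form of subunit VIIb known from testis, passed it through 8 KO arrays and 0 WT arrays, so that its difference is a description without a test. It read between 9.04 and 9.32 on the 8 KO arrays of replicates 4 and 5, between 8.23 and 8.45 on the 15 KO arrays of replicates 1 to 3, and between 8.19 and 8.45 on the WT arrays. The line difference of 0.31 was 0.076 within replicates 1 to 3 and 0.78 within replicates 4 and 5. Cox8c, a testis form of subunit VIII, had single arrays at 2.00 in KO at 0 min, 3.25 in KO at 60 min and 4.47 in WT at 90 min while its other arrays lay between 8.22 and 9.14, and no difference of it passed.

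**Figure D2:**
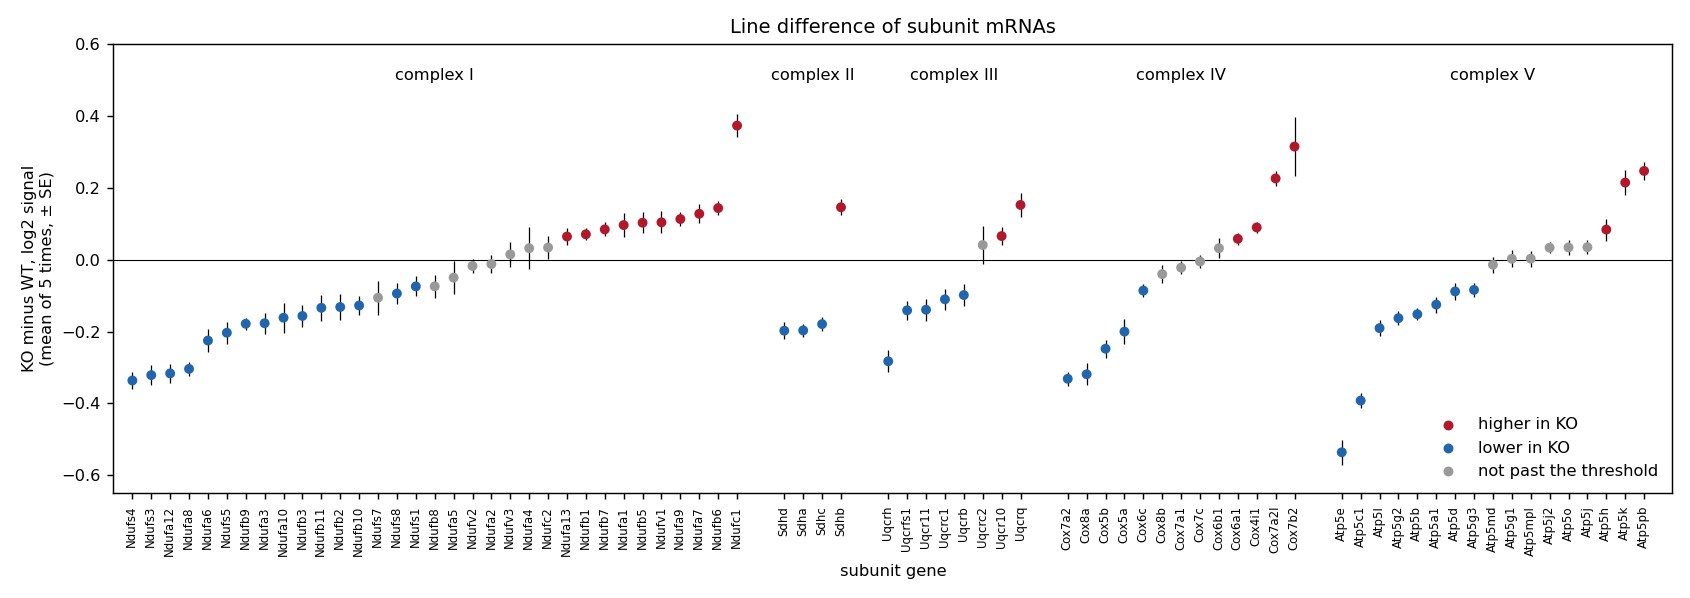
Points give the KO minus WT difference in log2 signal (vertical axis, mean over 5 times, bars ± SE) of 75 tested subunit genes, ordered within each complex. Red genes were higher and blue genes lower in KO at a limma adjusted p below 0.05. Cox7b2, drawn in red, passed the filter through KO arrays alone. Cox8c, with an SE of 0.395, is left out.

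At 0 min alone, after serum and before actinomycin D, 8 members were higher in KO and 22 lower, with 46 not past the threshold. These are 10.5% and 28.9% of the members, where 13.4% of all probe sets were higher and 11.9% were lower. All 30 calls at 0 min had the same call over all times, which share those arrays. The 8 higher genes included Ndufc1 (0.38), Atp5pb (0.31), Cox7a2l (0.25), Sdhb (0.24) and Atp5k (0.21), and the lower ones Atp5e, Cox8a (-0.38), Cox7a2 (-0.35), Atp5c1 (-0.35) and Ndufs4 (-0.34). The call of Atp5k at 0 min (adjusted p = 0.0499) did not hold without any of replicates 1, 2, 3 or 4 (0.17 to 0.22, adjusted p between 0.0742 and 0.197). That of Cox7a2l was lost within replicates 4 and 5 (0.16, adjusted p = 0.214), as were those of Cox8a (-0.17, adjusted p = 0.449) and Atp5pb (0.18, adjusted p = 0.0613). With 1 KO array at 0 min, replicates 4 and 5 alone gave 6 higher members (7.89%, against 10.3% of all probe sets) and 5 lower ones (6.58%, against 9.27%), so that the larger share of lower calls at 0 min was not seen there. Replicates 1 to 3 alone gave 7 higher (9.21%, against 12.3%) and 25 lower (32.9%, against 11.1%). The count of higher members was 5 without replicate 1, 4 without replicate 2 and 4 without replicate 3.

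**Figure D3:**
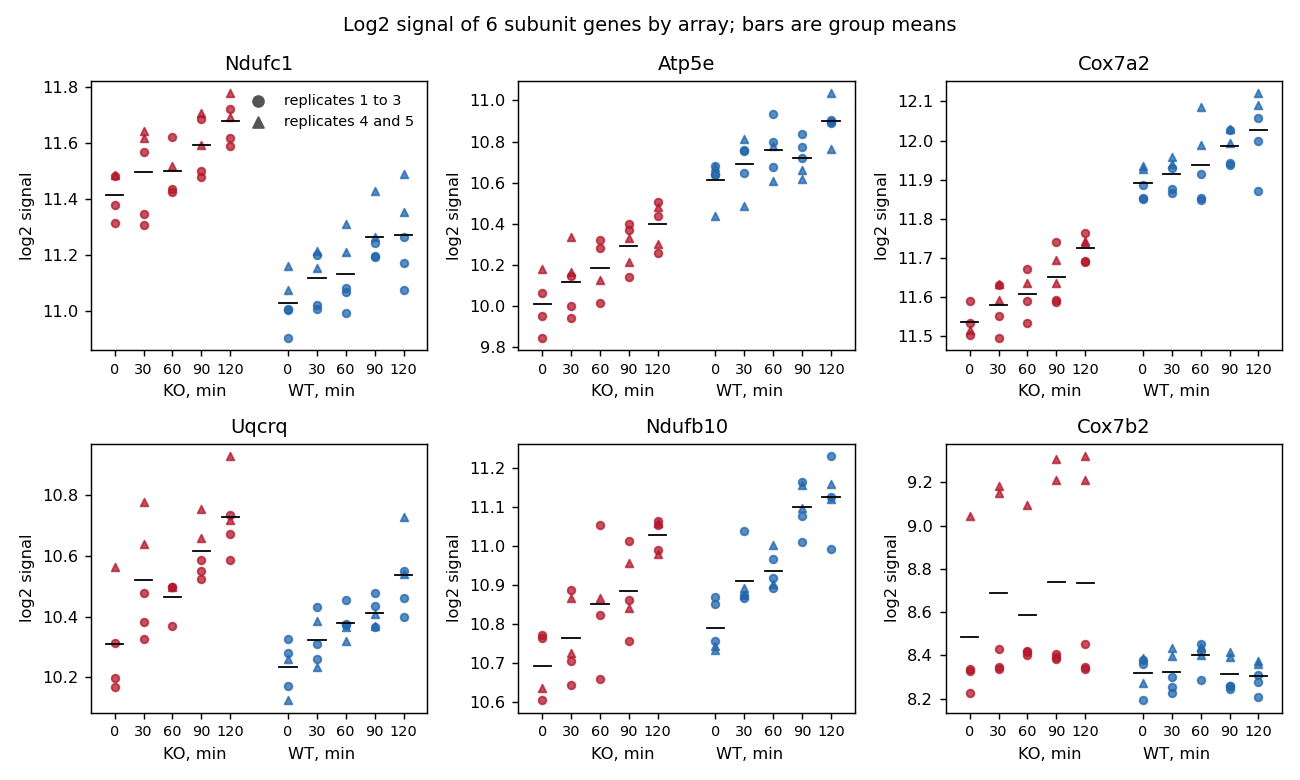
Each point is the log2 signal (vertical axis) of 1 array for 6 subunit genes, by minutes of actinomycin D in KO (red, left) and WT (blue, right); circles are replicates 1 to 3, triangles replicates 4 and 5, and bars the group means. Cox7a2 arrays of the lines do not overlap, and Cox7b2 reads above 9 only on KO triangles.

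The second question was how the subunit mRNAs fared over 120 min of actinomycin D. In the KO line 49 of the 76 members were higher at 120 min than at 0 min, 1 was lower and 26 did not pass. The risers were 64.5% of the members, where 11.9% of all probe sets were higher and 10.6% lower. In the WT line 47 members were higher at 120 min and 0 lower. These were 61.8% of the members, where 10.0% of all probe sets were higher and 14.0% lower. As with the line difference, the shares were not matched for signal. The members' median change was 0.19 in KO and 0.18 in WT, and that of all probe sets 0.0098 in KO and 0.032 in WT. By number, 43 members were higher in both lines (against 6.36% of all probe sets), 6 were called in KO alone and 4 in WT alone, and 23 in neither. Within replicates 4 and 5, with 1 KO array at 0 min, 16 members were higher in KO (21.1%, against 3.01% of all probe sets), and within replicates 1 to 3, 24 were higher in WT (31.6%, against 5.41%). With arrays centred on the ribosomal protein genes 36 members were higher in KO and 41 in WT, while all probe sets gave 1333 higher and 5344 lower in KO and 1372 higher and 4970 lower in WT.

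The mean over the 71 brighter members was 10.85 ± 0.023 (SD, n = 4) at 0 min in KO, 10.92 ± 0.078 (n = 5) at 30 min, 10.93 ± 0.058 (n = 4) at 60 min, 11.00 ± 0.048 (n = 5) at 90 min and 11.05 ± 0.032 (n = 5) at 120 min. In WT it was 10.92 ± 0.028 (SD, n = 5 at each time) at 0 min, 10.98 ± 0.028 at 30 min, 11.02 ± 0.029 at 60 min, 11.07 ± 0.017 at 90 min and 11.10 ± 0.058 at 120 min. In both lines the mean was higher at each later time. The arrays at 0 min and at 120 min did not overlap in either line in the plot of set means. The mean over all 27500 probe sets stayed between 9.09 and 9.11 in KO.

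**Figure D4:**
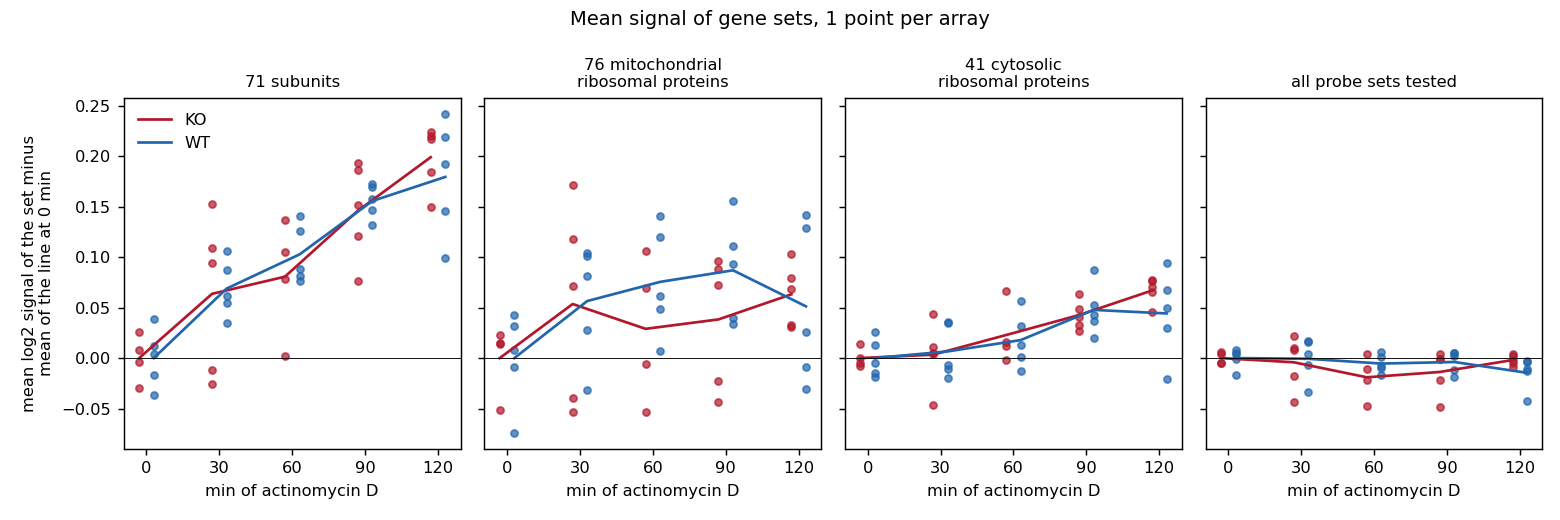
Each point is 1 array, showing the mean log2 signal of a gene set minus the mean of the same line at 0 min (vertical axis) against minutes of actinomycin D, with lines through the group means of KO (red) and WT (blue). The 71 subunits climb to about 0.2 in KO and 0.18 in WT, the 76 mitochondrial and 41 cytosolic ribosomal protein genes climb less, and all probe sets stay near 0.

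Complex I had 23 of 33 genes higher at 120 min in KO and 23 in WT (69.7% in each line, against 11.9% of all probe sets in KO and 10.0% in WT). By role 20 of 26 accessory subunits were higher in KO and 20 in WT, and 3 of the 6 core subunits in either line, Ndufv1, Ndufv2 and Ndufs8. Ndufb10, an accessory subunit of the membrane arm, read 11.06, 10.99, 11.05, 10.98 and 11.06 at 120 min in KO, against 10.76, 10.60, 10.77 and 10.64 at 0 min. In WT it read 10.99, 11.12, 11.23, 11.16 and 11.12 at 120 min, against 10.85, 10.76, 10.87, 10.73 and 10.74 at 0 min. The times did not overlap in either line, and the change was 0.34 ± 0.059 in KO (SE; limma adjusted p = 2.79e-05) and 0.33 in WT (adjusted p = 6.99e-06). Ndufa5, an accessory subunit of the matrix arm, rose by 0.36 ± 0.11 in KO (adjusted p = 0.00995) and by 0.32 in WT (adjusted p = 0.0135). Its WT change was not past the threshold within replicates 1 to 3 (0.24, adjusted p = 0.101) nor without replicate 2 (adjusted p = 0.0724) or replicate 4 (adjusted p = 0.0664). Ndufs8 rose by 0.27 in KO (adjusted p = 0.00265) and 0.30 in WT (adjusted p = 0.000360), and the KO call was lost without replicate 3 (0.22, adjusted p = 0.0633) and within replicates 4 and 5 (0.14, adjusted p = 0.540). Ndufs3 and Ndufs7 showed changes of 0.039 and -0.053 in KO and 0.071 and -0.084 in WT, with no call.

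Complex II rose in 3 of 4 genes in KO and in 4 of 4 in WT (75% and 100%, against 11.9% and 10.0% of all probe sets). Sdhd read 9.71, 9.91, 9.77, 9.89 and 9.88 at 120 min in KO, each above the 0 min arrays given before, and 9.94, 9.95, 9.94, 10.03 and 10.07 at 120 min in WT, where the lowest array at 120 min lies just under the highest at 0 min. The change was 0.22 in KO (limma adjusted p = 0.00250) and 0.16 in WT (adjusted p = 0.0210). Sdhb changed by 0.12 in KO without passing (adjusted p = 0.0717) and rose by 0.23 in WT (adjusted p = 0.000180), or by 0.17 within replicates 1 to 3, where it did not pass (adjusted p = 0.0543). Complex III rose in 5 of 8 genes in KO and 4 in WT (62.5% and 50%, against 11.9% and 10.0% of all probe sets). Uqcrq had the largest KO change of the brighter members. It read 10.59, 10.67, 10.73, 10.93 and 10.72 at 120 min in KO, against 10.31, 10.20, 10.17 and 10.56 at 0 min, with every 120 min array above every 0 min one. In WT it read 10.46, 10.40, 10.55, 10.73 and 10.54 at 120 min, against 10.33, 10.28, 10.17, 10.26 and 10.12 at 0 min, again without overlap. Its change was 0.42 ± 0.075 in KO (SE; limma adjusted p = 3.59e-05) and 0.30 in WT (adjusted p = 0.000949), and 0.26 in KO within replicates 4 and 5 (adjusted p = 0.133). By their brightest probe sets Uqcrc2, a core subunit, Uqcrb and Uqcrfs1 had no call in either line, with changes between 0.021 and 0.076 in KO and between 0.0012 and 0.029 in WT. Another probe set of Uqcrb, with a mean of 11.21, changed by 0.29 in KO (adjusted p = 0.0103) and 0.18 in WT (adjusted p = 0.107), so that the probe sets of this gene do not give 1 answer.

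Complex IV rose in 7 of 14 genes in KO and in 5 in WT (50% and 35.7%, against 11.9% and 10.0% of all probe sets). Cox7a2 rose by 0.19 in KO (limma adjusted p = 0.00120) and 0.14 in WT (adjusted p = 0.0116), where the call was lost within replicates 1 to 3 (0.11, adjusted p = 0.135) and without replicate 2, 4 or 5 (0.12 to 0.13, adjusted p between 0.0521 and 0.0954). The KO calls of Cox8a and Cox7a2l (0.19, adjusted p = 0.0462, and 0.15, adjusted p = 0.0126) were lost in several of the alternatives, among them centring on the ribosomal protein genes (0.12 and 0.085). Cox7c was the only member whose brightest probe set fell, by 0.13 in KO (adjusted p = 0.0233). It read 8.60, 8.53, 8.58, 8.54 and 8.55 at 120 min in KO, against 8.64, 8.73, 8.78 and 8.59 at 0 min, near the floor, where changes are compressed, and the call was lost without replicate 2, 3 or 5. A dimmer probe set of Cox7c fell by 0.25 in KO and by 0.31 in WT.

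Complex V rose in 11 of 17 genes in KO and in 11 in WT (64.7% in each line, against 11.9% of all probe sets in KO and 10.0% in WT). Atp5e read 10.26, 10.51, 10.44, 10.48 and 10.30 at 120 min in KO, each above the 0 min arrays, and 10.90, 10.89, 10.89, 11.04 and 10.77 at 120 min in WT, likewise. The change was 0.39 ± 0.080 in KO (SE; limma adjusted p = 0.000281) and 0.28 in WT (adjusted p = 0.00379), and the KO change was 0.21 within replicates 4 and 5 (adjusted p = 0.414). The KO arrays at 120 min still lay below 4 of the 5 WT arrays at 0 min. Atp5k rose by 0.32 in KO (adjusted p = 0.00231) and 0.26 in WT (adjusted p = 0.00700), where the call was lost without replicate 2 (0.23, adjusted p = 0.0593) or replicate 4 (0.24, adjusted p = 0.0522). Atp5g1, of the c ring, rose by 0.26 in KO (adjusted p = 0.000378) and 0.31 in WT (adjusted p = 5.33e-06), and its KO change did not pass within replicates 4 and 5 (0.21, adjusted p = 0.185). The brightest probe sets of Atp5a1 and Atp5pb had no call, at 0.13 and 0.074 in KO and 0.12 and 0.11 in WT. Further bright probe sets were called in 1 line each, that of Atp5a1 at 0.14 in KO (adjusted p = 0.0236) and that of Atp5pb at 0.22 in WT (adjusted p = 0.0164).

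The plot of changes sets the lines against each other. Over the 71 brighter members the changes in KO and WT had a Pearson r of 0.87 across genes, which share arrays and are not independent, so it is a description. The third question, which is the study's own, was whether loss of tristetraprolin changed the rate. Straight lines of log2 signal on time were fitted per line, and the slope difference is KO minus WT. None of the 76 members was called by limma, where 0.785% of all probe sets had a higher slope in KO and 0.251% a lower one. At an unadjusted p below 0.05 there were 2 members, and 8.59% of all probe sets. The lowest adjusted p of a member was 0.541. Among the 71 brighter members slope differences lay between -0.057 and 0.070 log2 per h with SEs between 0.021 and 0.080, and no call was made under any alternative. The extremes were Sdhb, with -0.057, and Atp5e, with 0.070. A p above the threshold does not show that the lines acted alike.

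**Figure D5:**
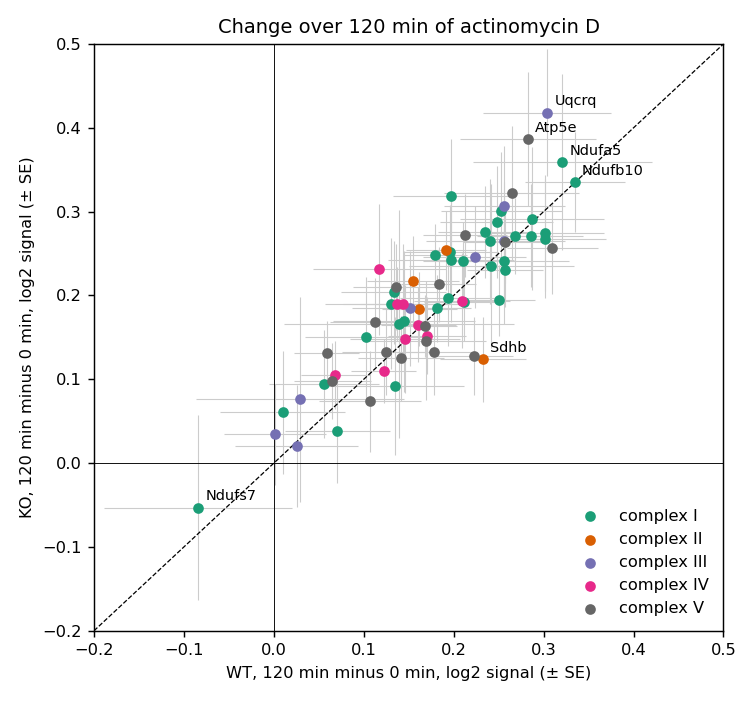
Each point is 1 of the 71 brighter subunit genes, with its change in log2 signal (120 min minus 0 min, ± SE) in WT on the horizontal axis and in KO on the vertical axis, coloured by complex; the dashed line marks equal change. Points run along the line from Ndufs7, below 0 in both lines, to Uqcrq at 0.42 in KO and 0.30 in WT.

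Genes of related function were counted from lists assembled with results of these data already in view. Of all probe sets 11.9% rose and 10.6% fell over 120 min in KO, and 10.0% rose and 14.0% fell in WT. Of 76 mitochondrial ribosomal protein genes, which make the translation machinery of the organelle, 32 rose and 11 fell over 120 min in KO and 28 rose and 13 fell in WT, with median changes of 0.11 in KO and 0.069 in WT. Among 41 cytosolic ribosomal protein genes 11 rose and 1 fell in KO and in WT alike, with medians of 0.063 in KO and 0.050 in WT. The members' median of 0.19 in KO and 0.18 in WT was above both. The difference between these sets was not tested. In the tricarboxylic acid cycle, which feeds the chain with NADH and succinate, 9 of 17 enzymes rose and 0 fell in KO, and 9 rose and 0 fell in WT. Idh3a, a subunit of NAD-dependent isocitrate dehydrogenase, was lower in KO by 0.41 over all times (limma adjusted p = 3.63e-15), with 9.66 to 10.17 in KO and 10.11 to 10.51 in WT, and rose over 120 min by 0.23 in KO (adjusted p = 0.0174), with a change of 0.084 in WT (adjusted p = 0.408). Over all times 5 of the 17 were higher in KO and 8 lower, where 27.3% of all probe sets were higher and 25.6% lower. The higher enzymes, at 29.4%, were near that share, and the lower ones, 8 of 17, were above theirs.

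Assembly factors build the complexes without staying in them. Of 49 tested, 13 rose and 6 fell over 120 min in KO and 12 rose and 8 fell in WT. The risers were 26.5% in KO and 24.5% in WT, against 11.9% and 10.0% of all probe sets. Cox17, a copper chaperone of complex IV, rose by 0.41 in KO (limma adjusted p = 0.00478) and 0.28 in WT (adjusted p = 0.0415), and Sco2 and Cox11, which act in the same copper delivery, fell by 0.51 and 0.47 in KO and by 0.44 and 0.39 in WT. Pet100, another assembly factor of complex IV, rose by 0.40 in KO and 0.34 in WT. Between the lines 13 were higher in KO and 18 lower, where 27.3% of all probe sets were higher and 25.6% lower. The higher factors, at 26.5%, were near that share, and the lower ones, 18 of 49, were above theirs. Tmem70, an assembly factor of the ATP synthase, ranged from 9.57 to 10.04 in KO and from 9.95 to 10.52 in WT, and was lower in KO by 0.54 ± 0.033 (SE; limma adjusted p = 1.58e-18). Cox20, a complex IV assembly factor, was lower in KO by 0.53, with 9.92 to 10.38 in KO and 10.45 to 10.89 in WT, which did not overlap. Coa3, another, was higher in KO by 0.47, with 9.66 to 10.19 in KO and 9.23 to 9.58 in WT, likewise without overlap. Of all probe sets 2.49% had every KO array below every WT array and 2.40% had every KO array above.

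Of 19 genes for electron carriers and coenzyme Q synthesis, 5 rose and 3 fell over 120 min in KO and 6 rose and 2 fell in WT. The risers were 26.3% in KO and 31.6% in WT, against 11.9% and 10.0% of all probe sets. Etfb, a subunit of the electron transfer flavoprotein, rose by 0.34 in KO and in WT, and Coq10b, a coenzyme Q binding protein, fell by 0.51 in KO and 0.72 in WT. Sqor, which passes electrons from sulphide to coenzyme Q, was lower in KO by 0.42 (limma adjusted p = 2.80e-19). Of 22 regulators of mitochondrial genes tested, 1 rose and 4 fell over 120 min in KO, and 0 rose and 8 fell in WT. In KO 17 were not called and in WT 14. Of all probe sets 10.6% fell in KO and 14.0% in WT. Pprc1, a coactivator related to Ppargc1a, fell by 0.76 in KO (adjusted p = 9.09e-13) and 0.94 in WT (adjusted p = 9.25e-17), and Mterf3, a regulator of mitochondrial transcription and ribosome assembly, fell by 0.55 in KO and 0.77 in WT. The riser was Gabpa, the DNA-binding subunit of GABP, by 0.22 in KO (adjusted p = 0.0276), with 0.033 in WT (adjusted p = 0.764). Over all times Hcfc1, a transcriptional coregulator, was higher in KO by 0.42, and Tfb2m, which starts mitochondrial transcription, was lower by 0.39. In none of these 4 groups of related genes, nor in the 2 of ribosomal proteins, did a slope difference pass the threshold.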

How the data were processed

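RNA of 48 samples was measured on Affymetrix mouse genome arrays, read with GeneChip Operating Software 1.2.0.037 per the labels' protocols. The authors deposited log2 signals per probe set; the log base was inferred from the values, up to 13.43, and probe summary, background correction and normalization are not given in the sources used here. The deposited scaling was kept. Of 45101 probe sets, 64 controls were left out, and tests ran on the 27500 above their array's median on at least 4 arrays.

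Groups were taken from the sample titles. Fits used limma 3.58.1 in R 4.3.3 (eBayes with trend and robust) over all 48 arrays, with 1 mean per line and time, or a straight line per line for slopes (log2 per h). Tests were two-sided, with Benjamini-Hochberg adjustment over 27500 probe sets and a threshold of 0.05; adjusted p-values are from limma throughout. Fits were checked on simulated arrays drawn independently of each other. The check therefore does not cover correlation between arrays of 1 line and replicate number. The number of arrays limits the precision. Named genes were up to 5 members with the highest and up to 5 with the lowest called estimates per comparison, the brightest of each complex, restricted isoforms that passed the filter, members with opposed probe sets, and up to 3 called genes per related list. Further members are named to fill out their complex and Gabpa as the only riser of its list, all after their values were seen. The members, their roles and the lists were chosen with earlier results of these data known. Alternatives changed the block, filter, scaling, background, probe set choice, Bayes settings and replicates used. Promoters are from RefSeq, GRCm38.p6.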

Additional observations from a re-analysis of the deposited data

Results flagged for a closer look

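In 21 of 280 groups of 4 or 5 arrays (28 genes) 1 array lay far from the others by Dixon's criterion, which flags about 1 in 20 groups by chance. Cox8c, the testis form of subunit VIII, accounts for 6, leaving 15 of 270: its lowest array read 2.00 in KO at 0 min, 3.25 in KO at 60 min, 8.30 in KO at 120 min, 8.34 in WT at 60 min and 4.47 in WT at 90 min, and its highest 9.07 in WT at 0 min. Over all probe sets, 60 values in 4 probe sets lay below 7, and Cox8c was the only member with any. For Cox7b2, the highest KO array read 9.04 at 0 min and 9.10 at 60 min, where the others averaged 8.30 at 0 min and 8.41 at 60 min. These are the array of replicate 4 at 0 min and that of replicate 5 at 60 min.

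Lowest KO arrays stood apart for Uqcrq at 60 min (10.37, the others averaging 10.50), Sdhc at 60 min (10.47, the others 10.55) and Cox7a1 at 90 min (8.51, the others 8.59). Lowest WT arrays did so for Atp5e at 0 min (10.44, the others 10.66), Atp5c1 at 0 min (11.66, the others 11.78), Cox6a1 at 90 min (11.93, the others 12.09), Ndufa12 at 90 min (11.08, the others 11.19) and Cox7a2l at 120 min (10.89, the others 11.09). Highest WT arrays did so for Cox7a2l at 0 min (10.96, the others 10.86), Cox8b at 0 min (8.83, the others 8.46), Ndufb11 at 0 min (11.79, the others 11.54), Sdhc at 0 min (10.71, the others 10.53) and Ndufb10 at 30 min (11.04, the others 10.88).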

How the results depend on the processing

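Counts of members called were recomputed under 152 combinations of comparison, direction and alternative, and 132 stayed within 1.5 times the count reported. Slope calls were 0 under each alternative run. Leaving out 1 replicate number at a time gave 35 to 48 members higher at 120 min in KO with 0 to 1 lower, 38 to 47 higher in WT with 0 to 1 lower, 4 to 6 higher and 16 to 25 lower in KO at 0 min, and 16 to 20 higher and 34 to 38 lower over all times. The smallest KO count came without replicate 2. Members higher at 120 min were 16 in KO within replicates 4 and 5 alone, with 1 array at 0 min, and 24 in WT within replicates 1 to 3 alone. Lower members in KO at 0 min were 5 within replicates 4 and 5 alone, and higher ones 5 with no filter. The single fall in KO, of Cox7c, became 0 under quantile normalization, background subtraction, replicates 1 to 3 alone and replicates 4 and 5 alone, and 1 member fell in WT under the replicate block, the random block, centring on 41 ribosomal protein genes, background subtraction and the mean of all probe sets. The cause of these differences was not tested. With the replicate number as a block, 59 members rose and 1 fell in KO, 58 rose and 1 fell in WT, 23 were higher and 38 lower in KO over all times, and 11 were higher and 28 lower at 0 min. With each line's replicate as a random block the counts of members, in the same order, were 60 and 1, 58 and 1, 17 and 31, and 9 and 25. The shares of all probe sets were then 19.5% and 14.4%, 18.2% and 17.3%, 21.1% and 17.4%, and 14.7% and 12.6%. The labels do not tie the numbers to the days, and not every same-numbered KO and WT pair at the same time had deviations correlated above 0.1, so the numbers were not taken to pair samples. Of 23 such pairs 16 were above 0.1 (median 0.17, all 8 of replicates 4 and 5), against 25 of 92 pairs with different numbers (median -0.074), and 22 of 46 arrays correlated best with their own number, a hint from the data and not from the design.

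Centring on ribosomal protein genes gave 36 risers in KO and 41 in WT, and moved the split of all probe sets over 120 min to 1333 higher and 5344 lower in KO (against 3268 and 2924) and to 1372 higher and 4970 lower in WT (against 2757 and 3853). It moved that of the line difference to 9124 higher and 5227 lower in KO over all times (against 7517 and 7039) and 4832 and 2665 at 0 min (against 3690 and 3274). Quantile normalization gave 4096 higher and 3753 lower in WT, with 45 member risers. Of 2128 alternative values of 28 named members, 2003 kept their direction and side of the threshold, 81 lost and 43 gained a call, and 1 reversed: Ndufs8 over all times, 0.021 within replicates 4 and 5. Signals near the floor of 8.13 limit what can be said of Cox7c, Cox8c and the restricted forms.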

Other observations

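The split of Cox7b2 within the KO line had companions outside the respiratory chain. Among the 42 probe sets in which the KO arrays of replicates 4 and 5 stood apart from those of replicates 1 to 3, Pdha1, the X-linked alpha subunit of pyruvate dehydrogenase, read 10.25 to 10.32 in KO replicates 4 and 5, 10.82 to 10.98 in KO replicates 1 to 3 and 10.45 to 10.79 in WT. Rhox5, an X-linked homeobox gene known from the reproductive tract, read 11.08 to 11.36 in KO replicates 4 and 5, 9.02 to 9.45 in KO replicates 1 to 3 and 8.70 to 9.27 in WT. Tgfbi, a secreted matrix protein, read 8.40 to 8.48 in KO replicates 4 and 5, 9.69 to 10.17 in KO replicates 1 to 3 and 11.95 to 12.34 in WT by its brightest probe set. Xist, the X-linked RNA that acts in X inactivation, read 7.84 to 7.91 in KO replicates 4 and 5, 8.51 to 8.99 in KO replicates 1 to 3 and 9.27 to 10.17 in WT. The same split in the WT line was found in 7 probe sets, 4 above and 3 below. The genes named were chosen after their values were seen and do not stand for the 42 probe sets, and no test was run. Other genes among the 42 include Il6, Il1rn, Saa3, Lbp, Peg3, Hspb1 and Rrm2.

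Some subunits were measured by probe sets that carry several symbols and were left out by the rule. The brighter probe sets of Ndufb4 and its relatives Ndufb4b and Ndufb4c averaged 10.73 and 10.42 over all arrays, that of Ndufa11 and Ndufa11b 10.30, and that of Ndufs6 and Ndufs6b 10.32.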
